A study of Mus musculus with 20 samples.

Results

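Imprinted genes of the mouse hippocampus were followed from the juvenile to the adult brain and between genotypes. The 10 genes *Peg3*, *Meg3*, *Ndn*, *Snrpn*, *Nnat*, *Plagl1*, *Zdbf2*, *Magel2*, *Impact* and *Grb10* were chosen by name, as known imprinted genes, and were found by their Ensembl identifiers. All 10 were among the 19258 genes of the deposited table, and all 10 passed the filter on low values in every comparison. Another 40 imprinted genes were listed for comparison, of which 38 were measured. *Phlda2* and *Calcr* are not analysed here.

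RNA was sequenced from the hippocampus of 20 male C57BL/6J mice, with 5 different mice in each of 4 groups. Juvenile mice were taken at P20 to P22 (postnatal days) and adult mice at 4 months, and each age had a WT group and a group labelled Adnp-HT. Adnp-HT mice carry 1 allele of *Adnp* that lacks exon 5. *Adnp* encodes a zinc finger and homeodomain chromatin protein. The line came from the KOMP resource, was backcrossed to C57BL/6J and had been crossed with Protamine-Flp and Protamine-Cre mice, whose recombinases act in the male germ line. For juvenile Adnp-HT replicates 3 and 5, the column names of the table give the postnatal days in the opposite order to the labels. Values are DESeq2-normalized counts, called signal below, which summed to 31893000 to 32683300 per mouse. The sequencing depth behind them is unknown, so no counting interval is given. The counts pool both parental alleles, and in this inbred strain the allele of origin cannot be read from them.

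The label Adnp-HT was checked against *Adnp* itself. *Adnp* signal was 2235, 2197, 2204, 2187 and 2238 in juvenile WT mice and 2672, 2419, 2458, 2092 and 2432 in juvenile mice labelled Adnp-HT. It was 2007, 2219, 2136, 1984 and 2423 in adult WT mice and 2476, 2661, 2309.5, 2705 and 2705 in adult mice labelled Adnp-HT. Counted alone, *Adnp* thus had a higher mean under the label Adnp-HT at both ages, although juvenile Adnp-HT replicate 4 was lowest of all juveniles. The exact permutation test of the signal, two-sided with 5 mice against 5, gave p 0.0476 in juveniles and 0.0159 in adults. In the fit across all genes with limma, which is used for every adjusted p below, *Adnp* was not called at either age (log2 fold change 0.12, SE 0.053, adjusted p 0.542 in juveniles, and 0.26, 0.061 and 0.0913 in adults). Fitting all 20 mice together gave a call for the higher adult *Adnp* (adjusted p 0.0357, within a range of 0.0357 to 0.223 over alternatives). In the annotation *Adnp* shares 4393 of its 5350 exon bases with *Gm20716*, a gene on the same strand that was chosen after its values were seen, so its signal depends on how reads were divided between them. *Gm20716* was at 84.5% of WT in juveniles (2367 ± 207 against 2800 ± 197, exact permutation p 0.0159) and 63.7% in adults (1600.1 ± 121 against 2512 ± 194, exact permutation p 0.00794). Summed over both genes, signal was 95.4% of WT in juveniles, with overlap (4781 ± 94.0 against 5012 ± 183, exact permutation p 0.0159), and 89.4% in adults, with no overlap (4171 ± 115 against 4665 ± 147, exact permutation p 0.00794). The direction of the *Adnp* difference thus did not hold in the sum, which was lower in the direction of the label. Groups are used as labelled.

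Imprinted genes are transcribed mainly from the allele inherited from the mother or mainly from that inherited from the father. The choice is set by DNA methylation laid down in the germ line at imprinting control regions and kept through early development by ZFP57 and its partner TRIM28. Many imprinted genes act in growth, metabolism and the social and feeding behaviours that a brain supports, and several are strongly transcribed in young tissue and decline as growth slows. The paternally expressed genes *Ndn*, *Magel2*, *Snrpn* and *Mkrn3* lie in the domain whose loss causes Prader-Willi syndrome, next to the Angelman syndrome gene *Ube3a*. *Meg3*, *Rian* and *Mirg* are maternally expressed non-coding RNAs of the *Dlk1*-*Meg3* domain. Of the 10 members, *Meg3* alone is known as maternally expressed, and *Grb10* is expressed from the paternal allele in neurons and from the maternal allele in most other tissues.

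The bases just before the annotated starts of members were examined because several members changed together with age. RefSeq promoters (GRCm38.p6) were matched by symbol for 9 of the 10 members (*Impact* excepted), with 15 starts in all, out of 32851 promoters. Each window holds the 250 bases before a start, written 5′ to 3′ on the gene's strand. Windows were searched on both strands for TGCCGC, the hexamer that ZFP57 binds when methylated, and for GCCATNTT, a core of YY1 sites known from the *Peg3* control region. TGCCGC was present in 8.68% of all promoters and in 3 of the 15, those of *Meg3*, *Plagl1* and a start of *Zdbf2*, while GCCATNTT was present in 3.91% of all promoters and in 0 of the 15. Shown for *Meg3*, *Snrpn* and *Grb10*, genes whose signal fell or rose with age, are windows with no annotated exon (1 for *Meg3*, 2 of 4 for *Snrpn* and, for *Grb10*, the 1 of 2 with more CpG), and for *Zdbf2* the start with most hexamers. The *Meg3* window, on the plus strand, lies in no annotated gene. The first *Snrpn* window, on the minus strand, lies upstream of the gene in no annotated gene, and the second lies in an intron of *Snrpn* before the start of *Snurf*. The *Grb10* window shown, on the minus strand, lies in an intron of that gene. The *Zdbf2* window, on the plus strand, lies within *Gpr1* and *Platr12*, where a long form of *Zdbf2* is known to start, and overlaps 45 exon bases of the non-coding *Platr12*. Capitals mark TGCCGC or its reverse complement.
Meg3 chr12:109540746-109540995: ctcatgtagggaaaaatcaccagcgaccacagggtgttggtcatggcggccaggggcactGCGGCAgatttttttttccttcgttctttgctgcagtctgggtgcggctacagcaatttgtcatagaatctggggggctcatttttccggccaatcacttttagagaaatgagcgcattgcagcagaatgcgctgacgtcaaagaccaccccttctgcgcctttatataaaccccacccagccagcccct
Snrpn chr7:60140226-60140475: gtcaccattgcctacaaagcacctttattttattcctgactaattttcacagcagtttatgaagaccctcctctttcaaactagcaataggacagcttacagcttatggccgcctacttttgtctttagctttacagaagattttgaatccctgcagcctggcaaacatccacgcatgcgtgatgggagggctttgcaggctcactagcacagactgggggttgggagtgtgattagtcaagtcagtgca
Snrpn chr7:60005200-60005449: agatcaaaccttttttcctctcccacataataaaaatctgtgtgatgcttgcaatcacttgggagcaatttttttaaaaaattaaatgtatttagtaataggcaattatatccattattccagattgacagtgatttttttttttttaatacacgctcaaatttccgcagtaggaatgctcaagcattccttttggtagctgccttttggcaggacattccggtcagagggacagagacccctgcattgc
Grb10 chr11:12037421-12037670: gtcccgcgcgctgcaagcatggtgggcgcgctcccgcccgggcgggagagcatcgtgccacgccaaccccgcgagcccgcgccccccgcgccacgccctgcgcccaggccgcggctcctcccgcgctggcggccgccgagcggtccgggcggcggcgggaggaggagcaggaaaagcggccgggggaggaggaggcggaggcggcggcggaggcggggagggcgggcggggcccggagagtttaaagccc
Zdbf2 chr1:63200108-63200357: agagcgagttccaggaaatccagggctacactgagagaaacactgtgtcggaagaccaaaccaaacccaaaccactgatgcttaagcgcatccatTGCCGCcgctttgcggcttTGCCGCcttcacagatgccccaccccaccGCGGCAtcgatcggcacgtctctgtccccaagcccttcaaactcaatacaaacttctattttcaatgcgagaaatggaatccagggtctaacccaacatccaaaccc
The *Zdbf2* window holds 3 hexamers and the *Meg3* window 1, and those of *Snrpn* and *Grb10* hold 0. The *Grb10* window shown has 40 CpG, more than 98.7% of all promoters, against a median of 6, and the other *Grb10* window has 8. The first and second *Snrpn* windows have 3 CpG each and the 2 not shown 4 and 2, the *Meg3* window shown 10 and the *Zdbf2* window shown 13. The *Zdbf2* window not shown, at the start of the annotated gene, has 0 hexamers and 26 CpG. The *Meg3* window not shown has 0 hexamers and 0 CpG. A match describes these letters and does not show binding, and methylation is not analysed here.

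Signal per kilobase of the longest annotated transcript, averaged over 20 mice, was used to order the members by level. *Meg3* was at 11927 per kilobase, *Snrpn* at 10778 and *Nnat* at 5543. *Impact* (1548), *Peg3* (1403) and *Ndn* (997) followed. *Grb10* (208), *Plagl1* (173), *Zdbf2* (81.5) and *Magel2* (21.6) were lowest. Thus the non-coding RNA and the small *Snrpn* and *Nnat* messages led the order, and *Magel2* was far below the others. The order did not hold in every group beyond the spread between mice. In juvenile Adnp-HT mice the ranges of mean ± SD (n = 5) overlapped for *Meg3* (12583 ± 798) and *Snrpn* (12632 ± 345). In WT mice those of *Grb10* and *Plagl1* overlapped in juveniles (191 ± 22.1 and 150.2 ± 38.4) and adults (246 ± 25.0 and 212 ± 40.9). *Plagl1* and *Zdbf2* (103.7 ± 14.5) also overlapped in juvenile WT mice, and *Impact* (1532 ± 73.9) and *Peg3* (1430 ± 70.0) in adult WT mice. In adult Adnp-HT mice *Impact* (1523 ± 75.2) overlapped with *Peg3* (1459 ± 73.3), and *Grb10* (209.6 ± 14.2) with *Plagl1* (179.4 ± 18.1). With the mean transcript length in place of the longest, *Grb10* and *Plagl1* changed places and the other 8 kept theirs.

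Cell type marker lists were read first, because bulk signal mixes cell types, and fewer cells of a type cannot be told apart from less RNA per cell. The excitatory neuron list, which includes hippocampal *Prox1* and *Fibcd1*, had 8 of 8 genes measured, with *Camk2a* most abundant and none at 0 in any mouse. Its summed signal was 211417 ± 7128 in juvenile WT mice (SD, n = 5). The lists for other brain regions were lower, with 3291 ± 482 for thalamus (6 of 6 measured, *Rora* most abundant) and 1618 ± 178 for striatum (6 of 6, *Ppp1r1b* most abundant). The hypothalamus list reached 71.5 ± 8.48, with 3 of 8 genes measured and *Gal* most abundant, and *Agrp*, *Hcrt*, *Oxt*, *Avp* and *Pmch* are not analysed here. The marker signal was thus that of a tissue rich in excitatory neurons, with little of the hypothalamic list.

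A juvenile library stood apart. The choroid plexus list (7 of 7 measured, *Ttr* most abundant, *Slc4a5* at 0 in 2 mice) summed to 573, 508, 61729.8, 424 and 575 in juvenile WT mice. It summed to 638, 435, 1170.1, 2982 and 394 in juvenile Adnp-HT mice. Juvenile WT replicate 3 thus held choroid plexus marker signal in the range of adult mice, where the sums were 62422, 40757, 223244, 117847 and 106771 in WT and 143213, 77789.8, 68767, 22663 and 7361 in Adnp-HT. All 7 genes were called higher with age in both genotypes, of which *Slc4a5* passed the filter in Adnp-HT only through adults. Members whose age change in WT lost its call or its sign without juvenile WT replicate 3 are also given with their adjusted p or log2 fold change without it. Other imprinted genes and marker lists were not refitted without it.

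Other lists moved with age as well. Of all genes 19.7% were called higher and 19.9% lower in WT, and 19.7% and 19.8% in Adnp-HT. The immature neuron and dividing cell list (10 of 10 measured, *Dcx* most abundant, none at 0) summed to 6435, 6594, 6586, 7655 and 6788 in juvenile WT and 2829, 3068, 2961, 3099 and 3303 in adult WT mice, and 10 of 10 genes were called lower with age in each genotype. The sums were 6572, 6801, 5997, 5865 and 7168 in juvenile and 3039, 2992, 2935, 3071 and 3208 in adult Adnp-HT mice. No adult reached the lowest juvenile. The mature oligodendrocyte list (*Mbp* most abundant) was called lower for 8 of 8 genes in each genotype, with sums of 256487 to 368651 in juveniles and 133497 to 197246 in adults. The oligodendrocyte precursor list (*Olig1* most abundant) was lower for 6 of 6 genes in WT and 5 of 6 in Adnp-HT, with sums of 14796 to 16715 in juveniles and 7149.8 to 8344 in adults. These lists all fell without overlap between ages. The inhibitory neuron list (*Gad1* most abundant) was lower for 4 of 8 genes in WT and 5 of 8 in Adnp-HT, with sums of 22415 to 25574 in juveniles and 18076 to 21344 in adults. The astrocyte list (*Slc1a2* most abundant) was lower for 4 of 7 genes in WT, and lower for 3 and higher for 1 of 7 in Adnp-HT, with sums of 161573 to 189489 in juveniles and 139631 to 162968 in adults.

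The remaining lists moved in mixed ways. The excitatory neuron list had 2 genes higher and 3 lower of 8 in each genotype, and its sum was at 102% of juvenile in WT (exact permutation p 0.373) and rose to 114% in Adnp-HT with no overlap (exact permutation p 0.00794). *Camk2a*, at 113570 in juvenile and 144745 in adult Adnp-HT mice, rose by more than the sum did, so the other 7 genes together did not rise. The microglia list (*Csf1r* most abundant) had 3 higher and 2 lower of 7 in WT and 5 higher and 1 lower in Adnp-HT, and its sum rose to 106% in WT with overlap (exact permutation p 0.0317) and 115% in Adnp-HT without (exact permutation p 0.00794). The endothelium list (*Flt1* most abundant) had 1 higher and 2 lower of 6 in each genotype, with sums of 6877 to 7727 in juveniles and 6444 to 7623 in adults. These 3 lists thus held genes that rose and genes that fell. The meningeal fibroblast list (*Dcn* most abundant) had 1 higher and 3 lower of 7 in WT and 2 higher and 3 lower in Adnp-HT, with sums of 2729 to 4476 in juveniles and 1877 to 3576 in adults. The blood list (*Hbb-bs* most abundant) had 0 called of 5 by limma in WT, with 0 at an unadjusted p under 0.05, and 4 lower in Adnp-HT, with sums of 6366 to 19137 in juveniles and 6486 to 27454 in adults. Blood and meningeal sums thus overlapped between ages. The thalamus list had 2 higher and 1 lower of 6 in WT and 2 higher in Adnp-HT, with overlapping sums (adult mean 3448 in WT). The striatum list had 1 higher of 6 in each genotype, but its sum rose to 187% of juvenile in WT and 168% in Adnp-HT, with no overlap (adult mean 3024 in WT, exact permutation p 0.00794 in each). *Ppp1r1b* made most of this rise, with WT means of 764 and 2093, while *Drd1*, *Drd2*, *Adora2a* and *Rgs9* were at 101% to 103% in WT. The hypothalamus sum fell to 54.3% in WT and 43.9% in Adnp-HT, also with no overlap (adult mean 38.8 in WT, exact permutation p 0.00794 in each). Of its genes, 1 of 2 tested was called lower in WT and 2 of 2 in Adnp-HT, and *Gal*, at 7.43 in adult WT mice, passed the filter in WT only through juveniles. *Gal* carried the fall of the sum, while *Trh*, at low signal, had a mean of 6.28 in juvenile and 11.5 in adult WT mice and 5.54 and 10.2 in Adnp-HT. *Trh* and the 4 striatum genes beside *Ppp1r1b* were chosen after their values were seen. The part of these marker changes in the results that follow was not tested.

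**Figure D1:**
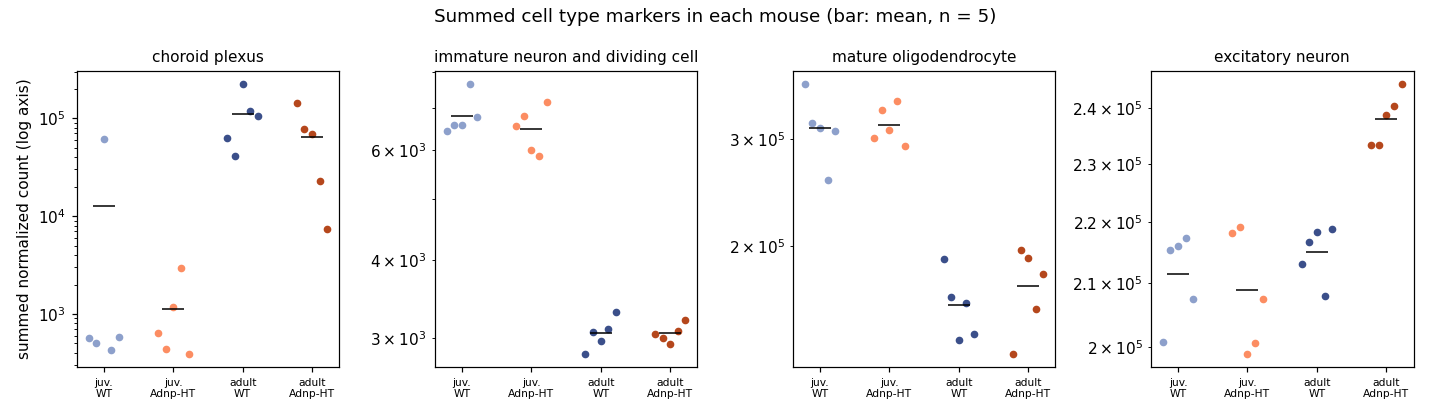
Summed signal of 4 marker lists in each mouse, on log axes, by group, where each point is a mouse and the bar is the group mean. Juvenile WT replicate 3 had 61729.8 for choroid plexus, and adult Adnp-HT mice had 233361 to 244472 for excitatory neurons, above all other mice.

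The first comparison asked how the members changed from the juvenile age of P20 to P22 to the adult age of 4 months within each genotype. Age changed much of the transcriptome, with 6956 of 17563 genes called in WT (39.6%) and 6972 of 17616 in Adnp-HT (39.6%), where called means an adjusted p under 0.05. In WT mice 8 of 10 members were called, 3 higher and 5 lower, against 19.7% of all genes higher and 19.9% lower. In Adnp-HT mice 7 of 10 were called, 2 higher and 5 lower, against 19.7% and 19.8% of all genes. Both counts depended on the fit and on single mice, with 5 called in WT without the trend, without juvenile WT replicate 1 or without adult WT replicate 4, and 5 to 7 in Adnp-HT over alternatives. The 2 age comparisons share no mouse, and 7 members were called in both with the same sign, against 29.8% of the 17365 genes tested in both, *Plagl1* and *Grb10* higher and *Meg3*, *Ndn*, *Snrpn*, *Nnat* and *Zdbf2* lower. Groups that did not overlap were seen for 5 members in WT (27.0% of all genes) and 3 in Adnp-HT (27.1%). The median log2 fold change of the members was -0.074 in WT and -0.10 in Adnp-HT, beside 0.0077 and 0.0078 over all genes tested. The median size of the change was 0.28 and 0.18 for the members and 0.18 and 0.19 for all genes. Age changes of the members were thus modest in size and went in both directions.

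**Figure D2:**
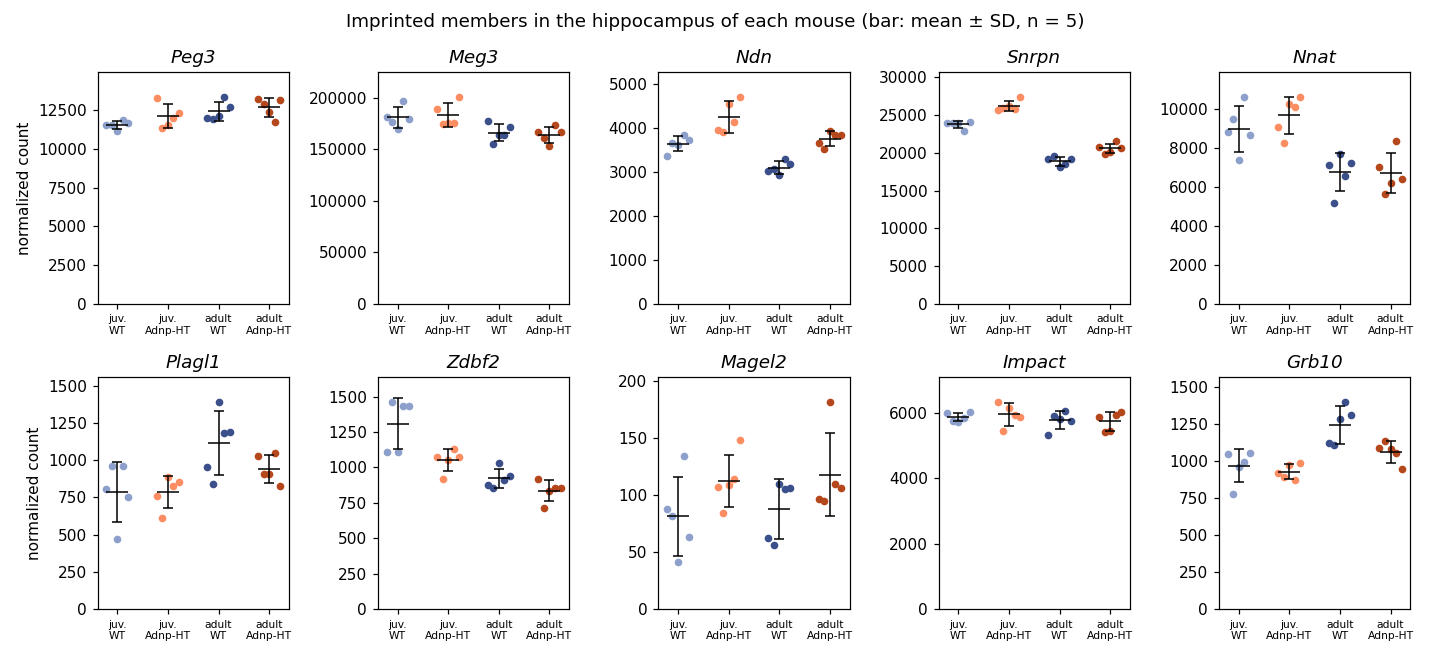
Signal (normalized count) of each member in each mouse by group, where each point is a mouse and bars are the mean ± SD (n = 5). *Snrpn* fell from 23771 to 18912 in WT mice and from 26224 to 20589 in Adnp-HT mice, and the group means of *Impact* lay between 5733 and 5943.

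In the Prader-Willi domain, *Snrpn* (ENSMUSG00000102252, chr7:59982495-60140219, minus strand, GRCm38) encodes an Sm protein of brain spliceosomes. *Snrpn* signal was 23954, 23946, 23998, 22896 and 24062 in juvenile WT and 19226, 19542, 18116, 18499 and 19176 in adult WT mice. It was 25656, 25962, 26234, 25823 and 27446 in juvenile Adnp-HT and 20729.5, 19903, 20143, 21565 and 20606 in adult Adnp-HT mice. Every adult was below every juvenile in both genotypes, and mice of a group lay close together. The adult mean was 79.6% of the juvenile mean in WT (log2 fold change -0.33, SE 0.028, adjusted p 2.26e-06). It was 78.5% in Adnp-HT (log2 fold change -0.35, SE 0.031, adjusted p 1.83e-06). *Snrpn* was called under all alternatives tried in both genotypes.

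*Snrpn* shares 216 of its 2159 exon bases with *Snurf* and 589 with *Gm38393*, both on the same strand and counted as genes of their own, so its signal depends on how reads were divided among them. The 216 bases are the whole annotated length of *Snurf*, so all of its signal depends on that division. *Gm38393* was chosen after its values were seen. *Snurf*, an upstream reading frame of the *Snrpn* transcript, was 735, 857, 919, 720.1 and 728 in juvenile WT and 251, 273, 325, 295 and 238 in adult WT mice. It was 693, 898, 812, 723 and 923 in juvenile Adnp-HT and 327, 292, 333, 312 and 315 in adult Adnp-HT mice. Adults were below all juveniles, at 34.9% of the juvenile mean in WT and 39.0% in Adnp-HT, a larger fall than that of *Snrpn*. *Gm38393* had means of 531.6, 509 and 557 in juvenile WT, juvenile Adnp-HT and adult WT mice and 580.5 in adult Adnp-HT mice. Summed over the 3 genes, adult signal was 78.7% of juvenile in WT and 78.0% in Adnp-HT, with an exact permutation p of 0.00794 in each, the smallest that 5 mice against 5 allow. The fall was thus as large in the sum. *Snrpn* made most of this sum (23771 of 25094.5 in juvenile WT mice), so the sum is not a separate check.

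*Ndn* (ENSMUSG00000033585, chr7:62346569-62350262, plus strand) encodes necdin, a MAGE family protein of postmitotic neurons. *Ndn* signal was 3368, 3643, 3611, 3839.7 and 3728 in juvenile WT and 3013, 3061, 2925, 3284 and 3178 in adult WT mice. It was 3951, 3900.5, 4544, 4133 and 4703 in juvenile Adnp-HT and 3645, 3519.6, 3919.8, 3838 and 3842 in adult Adnp-HT mice. All adult WT mice were below all juvenile WT mice, whereas in Adnp-HT the highest adult passed the lowest juvenile. The adult mean was 85.0% of the juvenile mean in WT (log2 fold change -0.23, SE 0.042, adjusted p 0.000785) and 88.4% in Adnp-HT (log2 fold change -0.18, SE 0.054, adjusted p 0.0193). In Adnp-HT the call was lost in limma without the trend (adjusted p 0.051) and without juvenile Adnp-HT replicate 3 (0.053), juvenile Adnp-HT replicate 5 (0.0501) or adult Adnp-HT replicate 2 (0.0514), with log2 fold changes of -0.20 to -0.14 over all single omissions and adjusted p of 0.00766 to 0.053 over all alternatives.

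*Magel2* (ENSMUSG00000056972, chr7:62377010-62381640, plus strand) encodes a MAGE protein of endosomal protein recycling and had the lowest signal of the members. *Magel2* was 87.7, 81.4, 41.3, 135 and 63.0 in juvenile WT and 62.5, 56.0, 109.6, 105 and 106 in adult WT mice. It was 107, 84.4, 109, 114 and 148 in juvenile Adnp-HT and 96.9, 94.8, 182, 110 and 107 in adult Adnp-HT mice. Groups overlapped widely, and juvenile WT replicate 3, the library with choroid plexus signal, was lowest of all 20. Age changes were within the error of the fit (log2 fold change 0.15, SE 0.29, adjusted p 0.709 in WT, and 0.046, 0.18 and 0.865 in Adnp-HT). Without juvenile WT replicate 3 the WT value was -0.062.

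Of the other genes of the domain, *Mkrn3* fell with age in both genotypes. *Mkrn3*, a ubiquitin ligase of pubertal timing, was 162, 115, 133, 204 and 177 in juvenile WT and 29.3, 32.97, 18.4, 33.4 and 25.9 in adult WT mice. It was 194, 201, 212, 149 and 373 in juvenile Adnp-HT and 17.96, 31.6, 32.9, 46.1 and 28.3 in adult Adnp-HT mice. No adult came near a juvenile, and the adult mean was 17.7% of the juvenile mean in WT (log2 fold change -2.46, SE 0.19, adjusted p 1.25e-06) and 13.9% in Adnp-HT (-2.80, 0.25 and 2.07e-06). *Ube3a*, maternally expressed in neurons, was called lower in WT (log2 fold change -0.15, SE 0.037, adjusted p 0.00648) and not in Adnp-HT (-0.056, 0.059 and 0.48), and the difference between the genotypes in this change was not called (interaction adjusted p 0.894). *Peg12* had a mean of 10.4 in juvenile WT and 2.80 in adult WT mice, under the filter of the age fits and so not tested. Among *Mkrn3*, *Snrpn*, *Ndn* and *Magel2*, the fall was thus largest for *Mkrn3*, smaller for *Snrpn* and *Ndn*, and not detected for *Magel2*. *Snurf* is left out of this order, since all of its exon bases are shared with *Snrpn*. *Peg12*, not tested, and *Ube3a*, called in WT only, are left out as well.

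**Figure D3:**
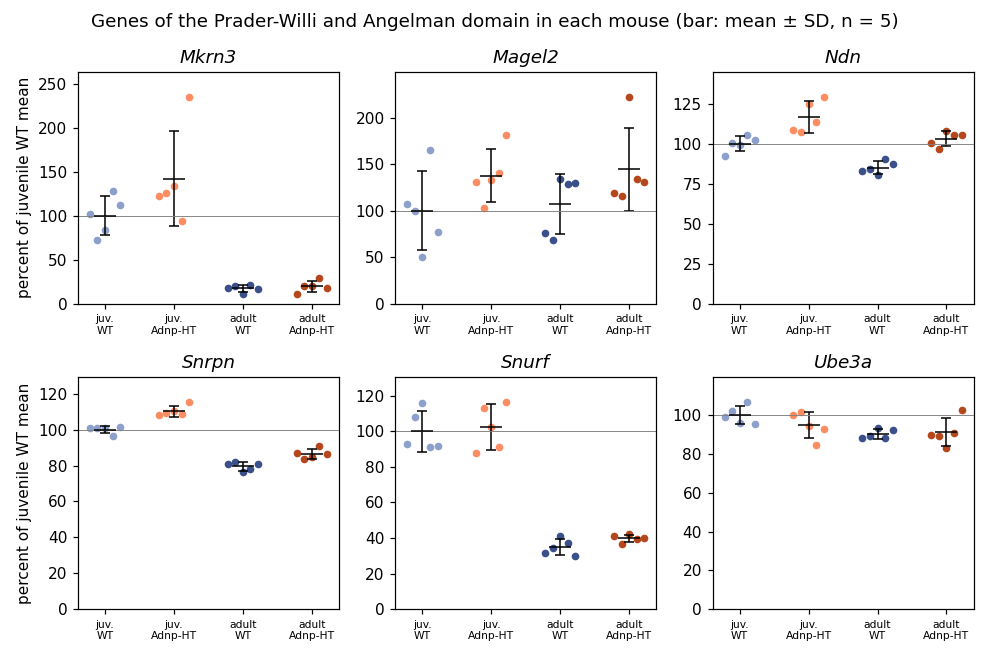
Signal of 6 genes of the Prader-Willi and Angelman domain in each mouse, as a percent of the juvenile WT mean, where bars are the mean ± SD (n = 5). Adult WT means were 17.7% for *Mkrn3*, 34.9% for *Snurf*, 79.6% for *Snrpn* and 85.0% for *Ndn*, and *Magel2* groups overlapped.

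In the *Dlk1*-*Meg3* domain, *Meg3* (ENSMUSG00000021268, chr12:109541001-109571726, plus strand) is a maternally expressed long non-coding RNA. *Meg3* signal was 181219, 176435, 169972, 197000 and 179671 in juvenile WT and 177534, 154592, 163328, 164170 and 171034 in adult WT mice. It was 188910, 174673, 175246, 175576 and 200864 in juvenile Adnp-HT and 167111, 160471, 153070, 172976 and 166359 in adult Adnp-HT mice. Adults were lower on average in both genotypes, with adult WT replicates 1 and 5 within the juvenile WT range and no overlap in Adnp-HT. The adult mean was 91.9% of the juvenile mean in WT (log2 fold change -0.12, SE 0.044, adjusted p 0.0413) and 89.6% in Adnp-HT (log2 fold change -0.16, SE 0.046, adjusted p 0.0137). The WT call rests on single mice, since it was lost without juvenile WT replicate 1 (adjusted p 0.0716), 4 (0.0944) or 5 (0.0682) or adult WT replicate 2 (0.0913), 3 (0.0744) or 4 (0.0798), with log2 fold changes of -0.15 to -0.091. It was also lost in limma without the trend (0.0906). With quantile normalization the fall was larger (-0.48 in WT and -0.49 in Adnp-HT), and over all alternatives the adjusted p ran from 3.75e-07 to 0.0944 in WT and from 6.43e-08 to 0.0426 in Adnp-HT.

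*Rian*, a maternally expressed host of small RNAs downstream of *Meg3*, was 26771, 27406, 26458, 29773 and 28009 in juvenile WT and 20808, 20881, 20498, 21042 and 21066 in adult WT mice. Its groups lay well apart, and *Rian* fell in WT (log2 fold change -0.41, SE 0.032, adjusted p 1.18e-06) and in Adnp-HT (-0.38, 0.035 and 2.29e-06). *Mirg*, a host of microRNAs further downstream, was not called in WT (-0.0067, SE 0.061, adjusted p 0.941) or Adnp-HT (0.052, 0.093 and 0.69). Summed over *Meg3*, *Rian* and *Mirg*, adult signal was 89.7% of juvenile in WT (exact permutation p 0.0159) and 88.0% in Adnp-HT (exact permutation p 0.00794). Of the paternally expressed genes of the domain, *Rtl1* was called lower in WT (-0.25, SE 0.082, adjusted p 0.0283) and in Adnp-HT (-0.28, 0.086 and 0.0185). *Dlk1* and *Dio3* were not called in either genotype, with adjusted p of 0.287 and 0.935 in WT and 0.142 and 0.78 in Adnp-HT.

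*Nnat* and *Zdbf2* are paternally expressed genes that also fell. *Nnat* (ENSMUSG00000067786, chr2:157560078-157562522, plus strand) encodes neuronatin, a small proteolipid of the endoplasmic reticulum, within an intron of *Blcap* on the opposite strand. *Nnat* signal was 8813, 9473, 7368, 10595 and 8631 in juvenile WT and 7106, 5169, 7678, 6554 and 7230.2 in adult WT mice. It was 9076, 8266, 10261, 10076 and 10618 in juvenile Adnp-HT and 7035, 5615, 6217, 8332 and 6415 in adult Adnp-HT mice. A juvenile WT mouse (replicate 3) and an adult Adnp-HT mouse (replicate 4) reached into the range of the other age. *Nnat* fell to 75.2% in WT (log2 fold change -0.41, SE 0.11, adjusted p 0.00758) and 69.6% in Adnp-HT (-0.53, 0.093 and 0.000501), and was called under all alternatives tried. Its host gene *Blcap* rose in WT (0.17, SE 0.047, adjusted p 0.0137) and in Adnp-HT (0.11, 0.039 and 0.0342).

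*Zdbf2* (ENSMUSG00000027520, chr1:63273265-63314576, plus strand) encodes a zinc finger protein linked to growth and hypothalamic feeding circuits. *Zdbf2* signal was 1108, 1463, 1112, 1433 and 1433 in juvenile WT and 879, 854, 1032, 913 and 936 in adult WT mice. It was 1075, 921, 1051, 1132 and 1076 in juvenile Adnp-HT and 917, 713, 833, 854 and 857 in adult Adnp-HT mice. All adults were below all juveniles of their genotype, narrowly so in Adnp-HT. *Zdbf2* fell to 70.5% in WT (log2 fold change -0.50, SE 0.089, adjusted p 0.000721) and 79.4% in Adnp-HT (-0.33, 0.071 and 0.00208), and was called under all alternatives tried.

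*Grb10*, *Plagl1* and *Peg3* went the other way. *Grb10* (ENSMUSG00000020176, chr11:11930508-12038683, minus strand) encodes an adaptor that restrains signalling of the insulin and IGF1 receptors. *Grb10* signal was 1045, 779, 962, 997 and 1055 in juvenile WT and 1119, 1109, 1283, 1399 and 1311 in adult WT mice. It was 916, 896, 974, 873 and 988 in juvenile Adnp-HT and 1089, 1138, 1080, 1052 and 944 in adult Adnp-HT mice. All adult WT mice were above all juvenile WT mice, and in Adnp-HT adult replicate 5 lay within the juvenile range. *Grb10* rose to 129% in WT (log2 fold change 0.36, SE 0.088, adjusted p 0.00539) and 114% in Adnp-HT (0.19, 0.057 and 0.0175). The Adnp-HT call was lost when all 20 mice were fitted together (adjusted p 0.0555, within a range of 0.00441 to 0.0555 over alternatives).

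*Plagl1* (ENSMUSG00000019817, chr10:13060504-13131694, plus strand) encodes a zinc finger transcription factor that limits the cell cycle. *Plagl1* signal was 808, 961, 469, 960.4 and 751 in juvenile WT and 958, 844, 1392, 1181 and 1192 in adult WT mice. It was 763, 614, 889, 827 and 853 in juvenile Adnp-HT and 1031, 906, 907, 1050.1 and 824 in adult Adnp-HT mice. The ages overlapped in both genotypes, and juvenile WT replicate 3 was lowest of all 20 mice. *Plagl1* was called in WT (log2 fold change 0.52, SE 0.18, adjusted p 0.039) and in Adnp-HT (0.26, 0.096 and 0.043). Without juvenile WT replicate 3 the WT value was 0.34 and no longer called (adjusted p 0.0599). The WT call was also lost without juvenile WT replicate 1 (0.0577) or 5 (0.0684), without adult WT replicate 3 (0.0892), 4 (0.0792) or 5 (0.0804), in limma without the trend (0.0802) and with the replicate number as a block (0.07), within a range of 0.0126 to 0.0892. The Adnp-HT call was lost without juvenile Adnp-HT replicate 1 (0.0784) or 2 (0.0897) or adult Adnp-HT replicate 1 (0.0938), 2 (0.0577), 3 (0.0585) or 4 (0.1), in limma without the trend (0.084) and with all 20 mice in a single fit (0.197), within a range of 0.0239 to 0.197. The rise of *Plagl1* kept its sign throughout.

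*Peg3* (ENSMUSG00000002265, chr7:6703892-6730431, minus strand) encodes a zinc finger protein of growth, maternal care and cell death. *Peg3* signal was 11538, 11542, 11179, 11854 and 11694 in juvenile WT and 12016, 11924, 12136, 13379 and 12689.7 in adult WT mice. It was 13327, 11364, 11528, 12022 and 12303 in juvenile Adnp-HT and 13245, 12914, 12361, 11732 and 13179.6 in adult Adnp-HT mice. Adult WT mice were all above juvenile WT mice by a small margin, while the Adnp-HT groups overlapped. *Peg3* was called in WT (log2 fold change 0.10, SE 0.034, adjusted p 0.0295) and not in Adnp-HT (0.068, 0.047 and 0.269), and the genotypes were not shown to differ in this change (interaction adjusted p 0.958). The WT call was lost without juvenile WT replicate 1 (adjusted p 0.0532) or 3 (0.0693) or adult WT replicate 4 (0.0702) or 5 (0.0668), in limma without the trend (0.0738) and with all 20 mice in a single fit (0.0557), within a range of 0.00774 to 0.0738. Over all single omissions the WT log2 fold change of *Peg3* was 0.076 to 0.12. In the *Peg3* domain, the paternally expressed protease gene *Usp29* fell in WT (-0.39, SE 0.057, adjusted p 0.000165) and in Adnp-HT (-0.32, 0.052 and 0.000301), and *Zim1* was not called (adjusted p 0.121 and 0.0559).

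*Impact* (ENSMUSG00000024423) encodes an inhibitor of the kinase GCN2, which slows translation when amino acids are short. Its signal ran from 5308 to 6325 over the 20 mice, with means of 5866, 5943, 5765 and 5733 in juvenile WT, juvenile Adnp-HT, adult WT and adult Adnp-HT mice. It was not called with age in WT (log2 fold change -0.026, SE 0.036, adjusted p 0.598) or Adnp-HT (-0.051, 0.046 and 0.398), and the WT value was 0.028 under quantile normalization.

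**Figure D4:**
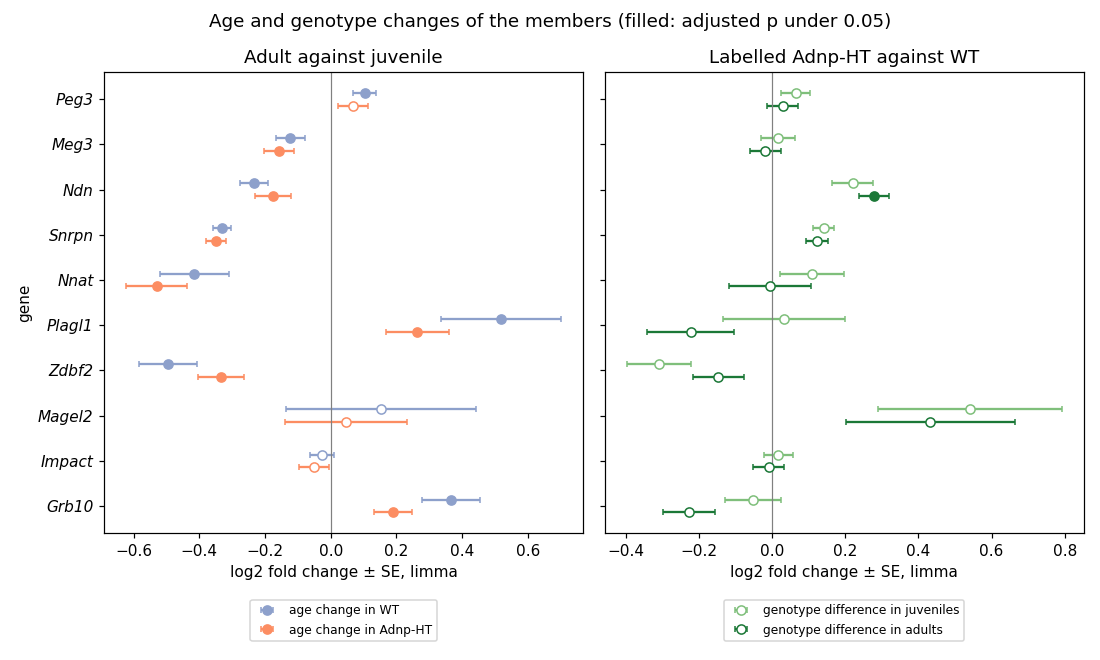
Log2 fold changes of the 10 members with their SE from limma, for age in each genotype and for genotype at each age, where filled points have an adjusted p under 0.05. With age 5 members were called lower in both genotypes, and by genotype only *Ndn* in adults was called (0.28).

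The second comparison asked whether members differed between the libraries labelled Adnp-HT and WT at each age, a contrast in which few genes were called. In juveniles limma called 67 of 17474 genes (0.383%), 0.286% higher and 0.0973% lower, and 0 of 10 members, of which 3 had an unadjusted p under 0.05, as did 1495 genes in all. In adults it called 112 of 17606 genes (0.636%), 0.528% higher and 0.108% lower, and 1 of 10 members, *Ndn*, with 3 members and 2007 genes in all at an unadjusted p under 0.05. The counts over all genes depended on single mice, with 26 to 59 called for juveniles and 41 to 135 for adults when each mouse in turn was left out. Groups did not overlap for 2 members in juveniles (2.25% of all genes) and for 2 in adults (3.06%), in each case *Ndn* and *Snrpn*. The juvenile and adult comparisons share no mouse. The median log2 fold change of the members was 0.049 in juveniles and -0.0067 in adults, beside -0.0012 and -0.0045 over all genes.

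*Ndn* signal in mice labelled Adnp-HT was above that of all WT mice at both ages, as the values by mouse above show. In adults it was 121% of WT (3753 ± 165 against 3092 ± 141, SD, n = 5), which limma called (log2 fold change 0.28, SE 0.041, adjusted p 0.00896), and higher in 5 of 5 mice. The call held under all alternatives tried, with adjusted p of 0.0055 to 0.0498 and log2 fold changes of 0.26 to 0.30 when each mouse in turn was left out. In juveniles it was 117% of WT (4246 ± 359 against 3638 ± 175) and was not called (log2 fold change 0.22, SE 0.055, adjusted p 0.136). It was not called with the labels' postnatal day in the fit, as planned (0.066). It became called with all 20 mice in a single fit (0.0433) and with the postnatal day of the column names, an alternative chosen after seeing the data (0.0342), within a range of 0.0342 to 0.308.

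*Snrpn* signal was 110.3% of WT in juveniles (26224 ± 715 against 23771 ± 492) and 109% in adults (20589 ± 641 against 18912 ± 585), higher in 5 of 5 mice at each age. It did not pass the threshold in either (log2 fold change 0.14, SE 0.028, adjusted p 0.0545 in juveniles, and 0.12, 0.03 and 0.103 in adults). When all 20 mice were fitted together it was called at both ages (0.0175 and 0.033), and with a pseudocount of 0.1 in juveniles (0.0494), within ranges of 0.0175 to 0.222 and 0.033 to 0.27. Summed over *Snrpn*, *Snurf* and *Gm38393*, juvenile signal was 109.8% of WT and adult signal 109%, with an exact permutation p of 0.00794 at each age, the smallest possible. Since *Snrpn* made most of the sum, this is not a separate check. *Snurf* alone did not differ beyond its spread, at 102% (exact permutation p 0.762) and 114% (exact permutation p 0.0635). The third paternally expressed member of the domain, *Magel2*, was at 138% and 134% of WT with overlapping groups and was not called (0.54, SE 0.25, adjusted p 0.584 in juveniles, and 0.43, 0.23 and 0.517 in adults). *Mkrn3* (0.564 and 0.899) and *Ube3a* (0.727 and 0.955) were not called either.

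*Zdbf2* was lower in the libraries labelled Adnp-HT, at 80.2% of WT in juveniles (log2 fold change -0.31, SE 0.088, adjusted p 0.207) and 90.4% in adults (-0.15, 0.07 and 0.464). Among juveniles, Adnp-HT replicate 4 alone exceeded the lowest WT mice, the adult groups overlapped, and the difference was not called at either age. *Grb10* was at 85.3% of WT in adults (log2 fold change -0.23, SE 0.071, adjusted p 0.219) and 96.1% in juveniles (-0.051, 0.076 and 0.906). *Plagl1* was at 84.7% in adults (-0.22, 0.12 and 0.518) and 99.9% in juveniles (log2 fold change 0.032). Both fell short of the threshold. When each mouse in turn was left out, adult log2 fold changes ran from -0.32 to -0.14 for *Plagl1* and from -0.18 to -0.091 for *Zdbf2*. Juvenile values ran from -0.13 to -0.018 for *Grb10*. *Peg3*, *Meg3*, *Nnat* and *Impact* lay between 98.7% and 107.6% of WT at both ages, with adjusted p of 0.717 to 0.994.

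Of the marker lists, 1 held called genotype differences. In adults the excitatory neuron list had 2 of 8 genes called higher, *Neurod6* (log2 fold change 0.19, SE 0.029, adjusted p 0.0127) and *Camk2a* (0.17, 0.027 and 0.0127). *Neurod6* was chosen after its values were seen. *Camk2a*, at 128246 in adult WT and 144745 in adult Adnp-HT mice, made most of the difference in the list's sum. The sum was 213133, 216653, 218448, 207877 and 218792 in adult WT and 233361, 233446, 238807, 240444 and 244472 in adult Adnp-HT mice, with no overlap. In juveniles it was 200752, 215440, 216057, 217408 and 207428 in WT and 218249, 219203, 198995, 200560 and 207444 in Adnp-HT mice, which overlapped. None of the 8 genes was at 0 in any mouse. The part of this difference in the higher *Ndn* and *Snrpn* signal was not tested. After subtracting group means, *Ndn* and this sum had r -0.16 over 20 mice and *Snrpn* and this sum r -0.08. Of all marker sums, the largest r after subtraction was 0.616 for *Ndn*, with inhibitory neurons, and -0.501 for *Snrpn*, with striatum, followed by -0.465 with hypothalamus. The hypothalamus sum, at low signal, also lay higher in mice labelled Adnp-HT, without overlap, at 146% of WT in juveniles and 118% in adults (exact permutation p 0.00794 at each age). Most of this difference was that of *Gal*, which was not called (0.73, SE 0.17, adjusted p 0.111 in juveniles, and 0.86, 0.33 and 0.345 in adults) and passed the filter of the adult fit only through Adnp-HT mice, at means of 7.43 in WT and 13.4 in Adnp-HT. Other sums differed with overlap, that of astrocytes at 92.7% of WT in juveniles (exact permutation p 0.0159), oligodendrocyte precursors at 94.8% in juveniles (0.0476), microglia at 108% in adults (0.0159) and striatum, with *Ppp1r1b* at 74.7%, at 81.0% in adults (0.0397). Choroid plexus sums were furthest from WT in juveniles (8.81%, exact permutation p 0.817), where juvenile WT replicate 3 stood apart. In adults they were at 58.0% (0.286) and blood sums at 57.8% (0.0952), also with overlap. The 13 lists other than excitatory neurons had 0 genes called for genotype by limma at either age. At an unadjusted p under 0.05 were for example 4 of 7 astrocyte genes in juveniles, and 4 of 7 microglia and 3 of 5 blood genes in adults.

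The age change was also compared between genotypes as an interaction in a fit of all 20 mice. Limma called 0 of 17590 genes (0%) and 0 of 10 members, with 1139 genes and 0 members at an unadjusted p under 0.05. The members with the lowest adjusted p were *Grb10* (log2 fold change -0.18, SE 0.11, adjusted p 0.86) and *Zdbf2* (0.16, 0.12 and 0.888). The age change of the members was thus not shown to differ between genotypes.

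Some pairs of members varied together from mouse to mouse and others did not, and a selection of pairs is given. Pearson r of log2 values over the 20 mice is given as a description, and because the 4 groups differ it is given again after the group means were subtracted. *Nnat* and *Meg3* had r 0.847 (0.667 after subtraction), and *Nnat* and *Zdbf2* 0.741 (0.667). *Plagl1* and *Nnat*, which moved in opposite directions with age, had r -0.099 over all mice but 0.796 after subtraction, and *Plagl1* and *Magel2* had 0.499 and 0.76. *Snrpn* and *Ndn*, of the same domain, had 0.795 but 0.307 after subtraction, *Ndn* and *Magel2*, which lie closer together, 0.443 and 0.421, and *Snrpn* and *Grb10* -0.78 and -0.21. Other pairs had r near 0 or below it after subtraction, such as *Snrpn* with *Magel2* (0.0296 and -0.351) and with *Peg3* (-0.435 and -0.342). *Nnat* and *Peg3* had -0.39 and 0.00051. Such r were not compared with those of all genes, and the members were not shown to vary together as a set. Juvenile WT replicate 3 was lowest of its group for *Plagl1* and *Nnat*. Without it, chosen after its marker values were seen, r after subtraction was 0.791 for *Plagl1* and *Nnat*, 0.643 for *Plagl1* and *Magel2*, 0.622 for *Nnat* and *Meg3*, 0.601 for *Nnat* and *Zdbf2*, 0.477 for *Ndn* and *Magel2* and 0.311 for *Snrpn* and *Ndn*. *Nnat*, *Plagl1* and *Zdbf2* also varied with the thalamus sum, with r -0.723, -0.506 and -0.543 after subtraction, and with the mature oligodendrocyte sum, with r -0.497, -0.425 and -0.605. The part of either in the r between members was not tested.

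The genes with the most similar pattern over the 20 mice, among 17590, were found for each member by the same r. The second value is r after the group means were subtracted. For *Snrpn* they were *Mdh2* (0.966, 0.597), *Calm2* (0.965, 0.712) and *Fkbp1b* (0.964, 0.539), and for *Ndn* *Rxfp3* (0.889, 0.56), *Krt79* (0.887, 0.431) and *Znf41-ps* (0.882, 0.335). For *Meg3* they were *Sema4g* (0.896, 0.809), *Prpf19* (0.893, 0.838) and *Sla* (0.873, 0.737), and for *Nnat* *Syn2* (0.924, 0.813), *Crym* (0.914, 0.829) and *Mndal* (0.898, 0.683). For *Zdbf2* they were *Eps8* (0.912, 0.768), *Sstr1* (0.901, 0.682) and *Oxtr* (0.896, 0.609), and for *Grb10* *Intu* (0.902, 0.701), *BC067074* (0.899, 0.713) and *Smpd1* (0.88, 0.644). No other member was among the 3 closest genes of any of these. For *Plagl1* they were *Hap1* (0.847, 0.851), *Gm44200* (0.843, 0.822) and *Dlc1* (0.841, 0.773), and for *Peg3* *Lif* (0.835, 0.808), *Osbpl2* (0.827, 0.724) and *Disp2* (0.794, 0.768). For *Magel2* they were *Zcchc12* (0.847, 0.837), *Frzb* (0.812, 0.771) and *Smarcd3* (0.809, 0.772), and for *Impact* *C8g* (0.785, 0.777), *Dusp2* (0.774, 0.8) and *Efnb2* (0.721, 0.713). Averaged over the 3 genes, r fell most after subtraction for *Ndn* and *Snrpn*.

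Other imprinted genes rose and fell with age as well. In WT 22 of 37 tested were called, 11 higher and 11 lower, and in Adnp-HT 19 of 36, 9 higher and 10 lower, against 39.6% of all genes called in each, with a median log2 fold change of 0.050 and 0.041. In both genotypes with the same sign 19 of 36 were called, against 29.8% of all genes, and 0 were called for genotype at either age or for the interaction by limma, with 5, 2 and 1 at an unadjusted p under 0.05. These counts include *Slc22a18* and *H19*, which passed the filter only through the age where they were high, so that nothing is read from their calls or rank. *Slc22a18*, a membrane transporter, had means of 4.85 and 20.9 in juvenile and adult WT mice (log2 fold change 1.86, SE 0.29, adjusted p 0.000272). The largest rise among the others called in both was that of *Igf2*, a fetal growth factor (log2 fold change 0.95, SE 0.29, adjusted p 0.0201). *Igf2* was 2262, 2029, 4426, 1979 and 3208 in juvenile WT and 3631, 2929, 9275, 6200.2 and 5746 in adult WT mice. Its highest juvenile and adult values were in the 2 WT mice with the highest choroid plexus sums of their age, replicate 3 of each. In Adnp-HT mice *Igf2* was 2272, 1649, 2250.4, 1869.7 and 1634 in juveniles and 6159, 4512, 4607, 3028 and 1671 in adults (log2 fold change 0.93, SE 0.26, adjusted p 0.012), and adult replicate 5, lowest there, had the lowest adult choroid plexus sum. Not all mice followed the choroid plexus sum. Juvenile WT replicate 5, with the second highest juvenile *Igf2* (3208), had a choroid plexus sum of 575 and the highest meningeal fibroblast sum of all mice (4476). Juvenile Adnp-HT replicate 4 had the highest choroid plexus sum of its group (2982) and *Igf2* at 1869.7. The part of choroid plexus or meningeal signal in the rise of *Igf2* was not tested.

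*Peg13*, a brain non-coding RNA, rose by a like amount in WT (log2 fold change 0.43, SE 0.054, adjusted p 5.25e-05) and Adnp-HT (0.43, 0.037 and 1.64e-06). *Mest* (0.48 and 0.28, adjusted p 0.00109 and 0.0454) and the neuronal Ras exchange factor *Rasgrf1* (0.27 and 0.32, 3.07e-05 and 8.9e-06) rose in both as well. *H19*, a non-coding RNA, had means of 20.5 in juvenile WT and 6.20 in adult WT mice (-1.99 in WT and -0.83 in Adnp-HT, adjusted p 0.0133 and 0.029), with adult WT replicate 2 listed at 0. By the mean log2 fold change of both genotypes, *H19* aside, *Mkrn3* and *Snurf* fell most. The amino acid transporter gene *Slc38a4* (-0.67 and -0.57, 0.0177 and 0.0304) and the retrogene *Mcts2* (-0.47 and -0.43, 0.00533 and 0.000571) followed.

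**Figure D5:**
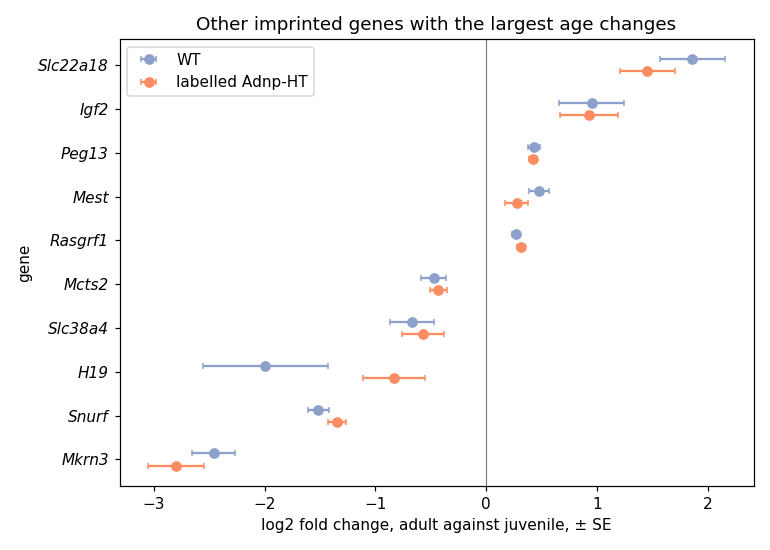
Log2 fold changes with age (± SE, limma) of the 5 other imprinted genes that rose most and the 5 that fell most among those called in both genotypes, by the mean of both. *Slc22a18* and *H19* passed the filter only through the age where they were high. *Igf2* rose by 0.95 in WT mice, and *Mkrn3* fell by 2.46 in WT and 2.80 in Adnp-HT mice.

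Genes linked to imprint maintenance were read from a list of 19, of which 18 were measured and 17 tested, and *Dppa3* is not analysed here. The list is mixed and also holds *Tet1*, *Tet2* and *Tet3*, genes of demethylating enzymes, so its counts do not describe maintenance alone. In WT 1 was called higher and 10 lower with age, against 19.7% and 19.9% of all genes. In Adnp-HT 1 was called higher and 7 lower, against 19.7% and 19.8% of all genes. *Zfp57*, which recognises methylated TGCCGC, was 501, 595, 516, 618 and 535 in juvenile WT and 235, 262, 304, 305 and 266 in adult WT mice. It fell without overlap to 49.6% in WT (log2 fold change -1.01, SE 0.088, adjusted p 2.69e-06) and 51.1% in Adnp-HT (-0.97, 0.10 and 6.19e-06). The demethylating enzyme gene *Tet1* (-1.11 and -1.08, adjusted p 2.85e-06 and 2.72e-06) and *Uhrf1*, which guides DNMT1 to replicated DNA (-0.90 and -0.72, 0.00184 and 0.00505), fell in WT and Adnp-HT. *Arid4a* (0.13 and 0.16, adjusted p 0.0454 and 0.0193) rose in both. The summed signal of the list, with *Zfp445* most abundant, went from 42241 ± 977 to 37831 ± 442 in WT (SD, n = 5), and limma called 0 of 17 for genotype at either age, with 1 at an unadjusted p under 0.05 at each.

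The ADNP complexes list holds *Adnp* and 9 partners in chromatin, all measured, with *Smarcc2* most abundant. In WT 3 were called higher and 3 lower with age, against 19.7% and 19.9% of all genes. In Adnp-HT 2 were called higher and 2 lower, against 19.7% and 19.8% of all genes. *Smarcc2* rose in both (0.15 and 0.22, adjusted p 0.00094 and 0.000101), and the heterochromatin protein genes *Cbx3* (-0.23 and -0.27, 0.000846 and 0.000458) and *Cbx1* (-0.18 and -0.22, 0.00343 and 0.00245) fell. Limma called 0 of 10 for genotype at either age, with 2 at an unadjusted p under 0.05 at each, and the juvenile sums overlapped (102% of WT, exact permutation p 0.373). The adult sum was 40832 ± 734 in WT and 42765 ± 722 in Adnp-HT mice, with no overlap (exact permutation p 0.00794). Most of this difference was that of *Chd4* (6922 and 7785) and of *Adnp* itself (2154 and 2571), whose direction did not hold when *Gm20716* was added. *Chd4* was chosen after its values were seen.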

How the data were processed

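RNA-Seq of hippocampus from 20 mice, 5 per group, was analysed. The authors mapped reads with Salmon 1.1.0 (quasi-mapping, GC-bias correction) on GRCm38, summed them per gene with tximport in R 3.5.3 and deposited the signal as DESeq2-normalized counts (DESeq2 1.30.1). The annotation release and any use of strand are not given in the sources used here. Reads and unnormalized counts are not analysed here, and depth is unknown. Because values were already normalized, DESeq2 was not used.

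Symbols and positions came from GENCODE vM21, which matched 19241 of 19258 genes. For each comparison, log2(value + 1) was fitted with limma 3.58.1 in R 4.3.3 with its mean-variance trend, keeping genes whose mean over the fitted mice was 10 or more. P-values were adjusted by Benjamini-Hochberg over all genes tested, and called means an adjusted p under 0.05. Every adjusted p is limma's. Sums of named genes were tested by exact permutation, two-sided. The steps were tested on simulated data. Plots were made in Python 3.11.15 with matplotlib 3.10.9.

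Members and lists were chosen with earlier results of these data known, and 1 gene of the imprint maintenance list is not reported here. Named are all members and *Adnp*, genes of a member's domain, up to 5 other imprinted genes each way with the largest mean age change among those called in both genotypes with the same sign, any called for genotype or interaction, up to 3 each way by the same rule from the imprint maintenance and ADNP complexes lists, the most abundant gene of each of 14 cell type lists and those at 0, and the 3 genes with the highest r to each member. Alternatives were a pseudocount of 0.1 or 5, a filter at any value above 0 or at a mean of 100, quantile normalization, limma without the trend, all 20 mice fitted together, a replicate block, the labels' postnatal day as a covariate and omission of each mouse in turn. The postnatal day of the column names, and leaving out the juvenile WT library with choroid plexus signal, were added after seeing the data.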

Additional observations from a re-analysis of the deposited data

Results flagged for a closer look

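In groups of 5 mice, a value was singled out when its gap to the nearest of the others, divided by the range of the group, passed Dixon's critical value of 0.71. This was so in 10 of 124 groups, and chance singles out about 1 in 20 independent groups. *Snrpn* and the sums that include it are counted as separate groups, so the groups are not independent and the 10 cannot be compared with chance. Among members, *Snrpn* in juvenile WT replicate 4 was 22896 against 23946 to 24062 in the other mice of its group, and with *Snurf* added 23616 against 24689 to 24917. With *Gm38393* added as well it was 24163.5 against 25196 to 25455. *Magel2* in adult Adnp-HT replicate 3 was 182 against 94.8 to 109.99.

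Among marker sums, juvenile WT replicate 3 had 61729.8 for choroid plexus against 424 to 575. Juvenile WT replicate 4 had 7655 for immature neurons and dividing cells against 6435 to 6788. Adult WT replicate 1 had 29.1 for hypothalamus against 39.3 to 43.0, adult WT replicate 2 had 1877 for meningeal fibroblasts against 3183 to 3576, and adult WT replicate 3 had 27454.5 for blood against 6486 to 10581. Adult Adnp-HT replicate 3 had 12698 for microglia against 11445 to 11773.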

How the results depend on the processing

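Of 1038 log2 fold changes of members under alternatives, 966 kept their direction and their side of the threshold, 36 lost a call, 5 gained a call and 31 changed sign. Leaving out juvenile WT replicate 3 is counted under 2 settings in these, as a single omission and as the library with choroid plexus signal, which adds 30 values, of which 24 kept both, 2 lost a call and 4 changed sign.

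The number of members called with age in WT was 8, and 5 in limma without the trend and 5 to 8 when each mouse was left out, with 5 without juvenile WT replicate 1 and 5 without adult WT replicate 4. In Adnp-HT it was 7, and 5 to 7 under the alternatives. For genotype in juveniles it was 0, and 1 with a pseudocount of 0.1, 2 with all 20 mice in a single fit and 1 with the postnatal day of the column names, which was chosen after seeing the data. It was 0 whichever mouse was left out. In adults it was 1, and 2 with all 20 mice in a single fit, and 1 whichever mouse was left out. For the interaction it was 0 under all 28 alternatives, with that omission again under 2 settings. The cause was not tested.

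The replicate numbers of the labels count different mice. Over 20 pairings of equal numbers across groups, r ran from -0.121 to 0.174 and 4 of 20 numbers matched best with themselves, so the numbers were not taken as pairs. With the replicate block, 7 members were called with age in WT (*Plagl1* was lost, adjusted p 0.07), 7 in Adnp-HT, 0 and 1 for genotype and 0 for the interaction. Over all genes the replicate block gave 39 calls in place of 67 in juveniles and 39 in place of 112 in adults. Without the trend these were 31 and 50, and with all 20 mice in a single fit they rose to 112 and 189. With genes of a mean of at least 100 they were 39 in juveniles and 103 in adults. Without juvenile WT replicate 3 or 5 they were 41 and 43 in juveniles, without juvenile Adnp-HT replicate 1, 3, 4 or 5 they were 34, 32, 26 and 43, without adult WT replicate 1, 4 or 5 they were 60, 41 and 48 in adults, and without adult Adnp-HT replicate 1, 3, 4 or 5 they were 60, 47, 60 and 44.

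The sign changed for values that were not called. Quantile normalization gave 0.028 for *Impact* with age in WT, -0.021 for *Magel2* with age in Adnp-HT, -0.017 for *Peg3* and 0.0096 for *Meg3* by genotype in adults, and 0.013 for *Meg3* in the interaction. Leaving out juvenile WT replicate 3, the library with choroid plexus signal, chosen after its marker values were seen, gave -0.062 for *Magel2* with age in WT, -0.0051 for *Meg3* and -0.14 for *Plagl1* by genotype in juveniles, and 0.11 for *Magel2* in the interaction. When each mouse was left out, log2 fold changes with age ran from -0.062 to 0.36 for *Magel2* and from -0.044 to 0.0032 for *Impact* in WT, and from -0.12 to 0.15 for *Magel2* in Adnp-HT. By genotype in juveniles they ran from -0.017 to 0.048 for *Meg3*, from -0.14 to 0.12 for *Plagl1* and from -0.0059 to 0.049 for *Impact*. In adults they ran from -0.044 to 0.0062 for *Meg3*, from -0.098 to 0.056 for *Nnat* and from -0.038 to 0.012 for *Impact*. For *Magel2* in the interaction they ran from -0.31 to 0.11. The cause was not tested.

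Depth is unknown, so no counting error is given. With 5 mice per group, exact tests cannot go below 0.00794. Bulk signal does not separate cell types, and signal of both alleles is pooled.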
